A study of Mus musculus with 247 samples.

Results

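JunB binding to chromatin was measured by ChIP-seq in RAW264.7 cells, a mouse macrophage line, after 2 hours with lipopolysaccharide (LPS), and GPS2 knockout (GPS2 KO) cells were set against wild-type (WT) cells. The members are all 58888 sites of the merged JunB peak list, chosen without regard to any change between the groups. Of these, 58810 had enough reads to be tested and 78 did not. The 4 libraries compared are 2 of GPS2 KO cells with LPS and 2 of WT cells with LPS, out of the 247 samples of the series. Both groups carry the BALB/c strain background of the line, were grown alike and were fixed with 2 mM DSG for 30 minutes followed by 1% formaldehyde for 10 minutes. The labels name CRISPR for the GPS2 KO cells of the RNA-seq and ATAC-seq samples, and those of the ChIP-seq samples do not say how GPS2 itself was removed. The labels give no LPS dose for ChIP-seq and do not say whether the knockout is 1 clone or whether the 2 libraries of a group came from separate cultures. Further libraries of the same line gave JunB without LPS (2 GPS2 KO and 2 WT), PU.1, MED1 and RNA polymerase II after 2 hours with LPS (2 GPS2 KO and 2 WT each), chromatin accessibility by ATAC-seq without LPS (3 GPS2 KO and 3 control) and poly(A) RNA-seq after 6 hours with LPS at 10 ng/ml (4 GPS2 KO and 4 WT).

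JunB is a subunit of AP-1, a family of leucine zipper factors that bind DNA as pairs of Jun, Fos, ATF or related proteins. In macrophages, LPS induces several AP-1 subunits, and AP-1 binds enhancers beside lineage factors such as PU.1. GPS2 is a subunit of the corepressor complex that also holds NCOR1, TBL1 proteins and the histone deacetylase HDAC3. This complex restrains transcription at many inflammatory enhancers. MED1 is a subunit of Mediator, the coactivator that links enhancers to RNA polymerase II.

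The 3 sites with the largest rise and the 3 with the largest fall, among those that met the rule for named sites, are shown as 200 bases around the site centre, read from the NCBIM37 assembly (mm9), plus strand, 5′ to 3′. Capitals mark TGACTCA or TGAGTCA, the AP-1 core as searched here, each of which reads as the other on the opposite strand. All 3 rises lie on chromosome 4, 2 of them near Plpp3.
Plpp3 intron, higher in GPS2 KO, chr4:104893612-104893811: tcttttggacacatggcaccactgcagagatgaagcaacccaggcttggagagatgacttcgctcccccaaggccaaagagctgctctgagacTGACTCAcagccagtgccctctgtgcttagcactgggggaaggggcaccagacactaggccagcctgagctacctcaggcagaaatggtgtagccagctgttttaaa
Downstream of Plpp3, higher in GPS2 KO, chr4:104964151-104964350: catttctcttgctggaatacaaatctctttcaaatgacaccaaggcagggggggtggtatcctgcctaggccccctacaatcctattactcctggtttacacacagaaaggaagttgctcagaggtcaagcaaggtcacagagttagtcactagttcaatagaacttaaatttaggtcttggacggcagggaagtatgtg
Col16a1 intron, higher in GPS2 KO, chr4:129748963-129749162: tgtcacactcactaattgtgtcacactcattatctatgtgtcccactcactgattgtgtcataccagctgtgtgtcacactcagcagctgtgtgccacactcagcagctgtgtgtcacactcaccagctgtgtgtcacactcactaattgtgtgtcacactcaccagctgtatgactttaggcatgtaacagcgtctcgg
Reep3 intron, lower in GPS2 KO, chr10:66546461-66546660: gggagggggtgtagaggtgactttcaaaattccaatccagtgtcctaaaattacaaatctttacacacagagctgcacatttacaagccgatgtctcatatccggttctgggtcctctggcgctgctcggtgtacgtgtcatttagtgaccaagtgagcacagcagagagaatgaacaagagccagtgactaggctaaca
Intergenic, nearest gene 1700028P15Rik, lower in GPS2 KO, chr2:171183958-171184157: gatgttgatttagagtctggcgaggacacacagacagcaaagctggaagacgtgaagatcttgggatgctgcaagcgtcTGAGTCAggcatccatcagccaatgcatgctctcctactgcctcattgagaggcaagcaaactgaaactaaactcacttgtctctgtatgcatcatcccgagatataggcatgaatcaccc
St3gal6 intron, lower in GPS2 KO, chr16:58519882-58520081: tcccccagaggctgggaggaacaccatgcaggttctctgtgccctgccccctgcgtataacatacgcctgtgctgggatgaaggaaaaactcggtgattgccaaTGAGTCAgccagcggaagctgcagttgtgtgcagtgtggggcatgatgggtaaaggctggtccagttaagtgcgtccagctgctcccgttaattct
The core stands in 1 of the 3 higher sequences and in 2 of the 3 lower ones.

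Values are reads per 10000000 mapped reads (RP10M), as deposited, and are given library by library, first library 1 and then library 2 of each group. In both LPS groups the 2 libraries agreed within sampling noise (chi-square per site 0.836 in GPS2 KO and 0.822 in WT), so no SD is given for a group. The fit takes each library as an observation, so its SE and p-values compare these libraries and do not stand for independently grown cells. The JunB libraries held 10448768 to 13181137 mapped reads in GPS2 KO cells and 11814160 to 13383288 in WT cells with LPS. The sites took 26.4% and 25.2% of them in GPS2 KO cells and 28.8% and 29.2% in WT cells, against 5.79% to 7.51% in the 4 libraries without LPS. Log2 changes and their standard errors (SE) are GPS2 KO minus WT after scaling by a trimmed mean of M values (TMM), with 1 added before the logarithm. A site was called when the Benjamini-Hochberg adjusted p from limma was under 0.05 and the change was at least 2-fold.

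In RNA after LPS, the targeted gene Gps2 had 66.3 to 84.9 RP10M in GPS2 KO libraries and 371.4 to 399.5 in WT libraries, a log2 change of -2.28 ± 0.08 (SE, limma adjusted p = 5.41e-12). Reads remained in the knockout, and which part of the gene was cut was not used here, so this is a check on the RNA labels and not on the ChIP-seq libraries. Of 10 macrophage markers, 9 averaged over 10 RP10M in both groups, and they summed to 9.41e+04 to 9.78e+04 in GPS2 KO and 7.75e+04 to 9.26e+04 in WT. The 3 measured of 10 granulocyte markers summed to 55.7 to 66.7 in GPS2 KO and 29.8 to 34.0 in WT, with Camp between 0 and 0.827 in GPS2 KO and between 0 and 0.708 in WT. The 3 measured of 10 lymphocyte markers summed to 2.81 to 5.798 in GPS2 KO and 2.26 to 4.39 in WT, and the 1 measured of 10 fibroblast and epithelial markers was at 0 in GPS2 KO and at most 0.627 in WT. The granulocyte sum was thus higher in GPS2 KO in all 4 libraries, and its part in the results was not tested. Csf3r made up most of it (38.9 to 53.3 in GPS2 KO and 18.4 to 30.7 in WT). The S100a8 ranges overlapped (12.8 to 17.4 in GPS2 KO and 3.13 to 14.9 in WT).

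JunB bound nearly the same set of places in the knockout, and a small share of sites changed by 2-fold or more, more of them upward. The authors had called a peak in all 4 LPS libraries at 55387 sites, in a GPS2 KO library but no WT library at 161, and in a WT library but no GPS2 KO library at 216. JunB was called higher in GPS2 KO cells at 2441 sites (4.15%) and lower at 939 (1.6%). The higher sites were faint in WT, with a median of 32.0 RP10M in GPS2 KO cells and 13.1 in WT cells. The lower sites showed the reverse, with 16.3 in GPS2 KO cells and 42.9 in WT cells. Few changes were large: 53 sites were at least 4-fold higher and 9 at least 4-fold lower.

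The median log2 change over all tested sites was 0.00312, with quartiles at -0.292 and 0.34. Without the 2-fold requirement, 7727 sites were higher and 8093 lower at adjusted p under 0.05. The excess of rises over falls rests on the scaling. With library totals in place of TMM the median of all sites moved to -0.14 and the calls were 1917 higher and 2136 lower. With cyclic loess, which levels the change across signal strengths, they were 1862 higher and 1131 lower. Changes are therefore relative to the bulk of sites. The counts also rest on the fit and on the value added. Over all 8 libraries, no weights with a trended, robust spread gave 14 higher sites and 3 lower, while the same settings over only the 4 LPS libraries, chosen after seeing the data, gave 2852 and 1169. With 5 added in place of 1 the counts were 774 and 230. On the unscaled values, both GPS2 KO libraries stood above both WT libraries at 23.4% of tested sites and below both at 42.8%, and all called sites were among these. In the authors' deposited table, an adjusted p under 0.05 with no fold requirement holds for 1524 higher sites (2.59%) and 1161 lower ones (1.97%). Of those in the authors' deposited table, 1114 and 478 were called in the same direction here.

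**Figure D1:**
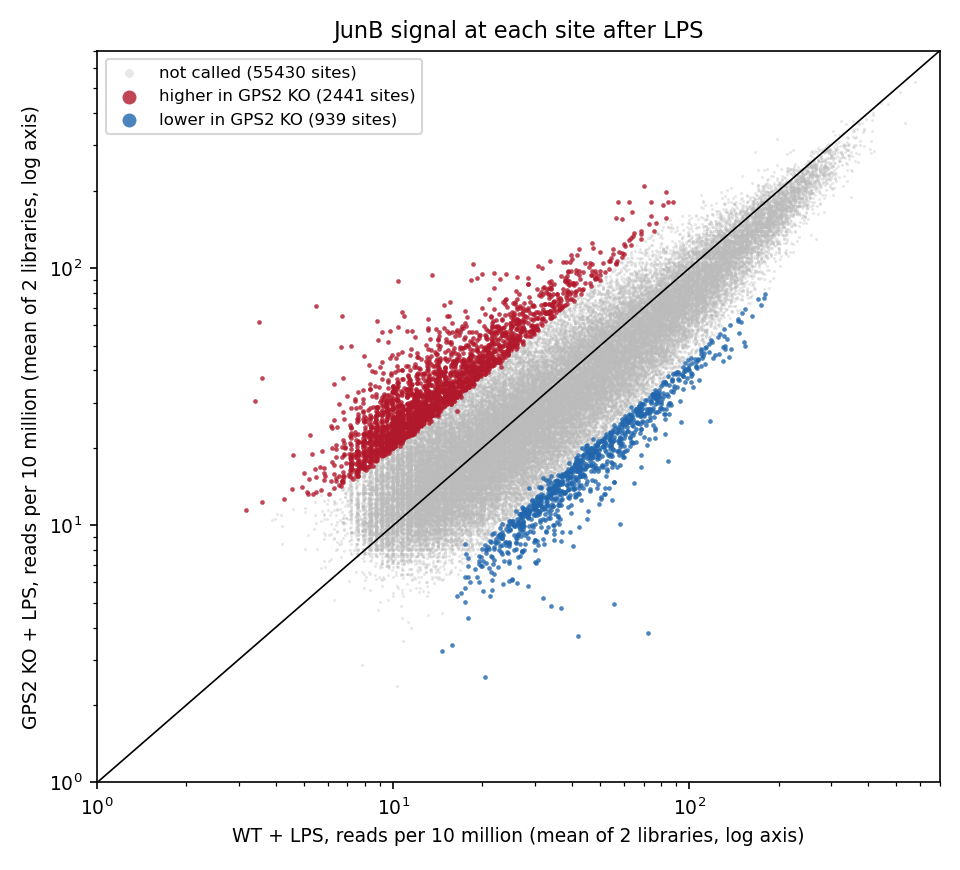
JunB signal at each of the 58810 tested sites, mean of the 2 libraries, in GPS2 KO cells with LPS (vertical) against WT cells with LPS (horizontal), in RP10M on log axes; the line marks equal values. The 2441 sites called higher (red) have a median of 13.1 RP10M in WT cells, the 939 called lower (blue) a median of 42.9, and neither colour reaches the strongest sites.

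The share of called sites varied with the strength of the site. Of the 18951 sites under 20 RP10M (mean of the 4 libraries), 4.82% were higher and 1.03% lower, and of the 18055 sites between 20 and 40 RP10M 6.48% were higher and 2.56% lower. Between 80 and 160 RP10M the shares were 0.574% and 0.476% of 7139 sites. None of the 2266 sites at 160 RP10M or more was called in either direction. The median log2 change was 0.143 in the faintest class, -0.106 between 80 and 160 RP10M and -0.0528 in the strongest class. The share of windows with an AP-1 core was 39.9% in the faintest class and 70.8% in the strongest.

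The 5 strongest sites show how steady the top of the list was. The site nearest Twsg1, a regulator of BMP signalling (chr17:66310869-66311207), had 559.9 and 493.9 RP10M in GPS2 KO cells against 557.4 and 595.9 in WT cells. An intronic site of Gmpr, a GMP reductase, had 520.6 and 449.1 in GPS2 KO cells against 492.4 and 535.8 in WT cells. Their log2 changes were 0.01 ± 0.03 and 0.06 ± 0.03 (SE), and neither passed the test (limma adjusted p = 0.813 and 0.199). The intronic Btbd9 site did not pass either (0.05 ± 0.03, limma adjusted p = 0.286). The site near Socs1, a brake on cytokine signalling, passed with a small log2 change of 0.12 ± 0.03 (limma adjusted p = 0.00238), and it lost that sign with library totals. The intergenic site nearest Arid5a, an RNA-binding protein that stabilises cytokine messages, was the exception, with 382.8 and 351.3 in GPS2 KO cells against 512.6 and 552.7 in WT cells. Its change of -0.40 ± 0.03 passed the test below 2-fold (limma adjusted p = 1.08e-14), and Arid5a RNA had a log2 change of -1.32.

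The sites with the largest rises were nearly silent in WT cells and of ordinary strength in the knockout. Among the 12 named higher sites, every GPS2 KO library had at least 25.84 RP10M and no WT library more than 14.39. Of these 12 sites, 8 were intergenic and 4 intronic, none lay within 1 kb of a start, and 4 held an AP-1 core. Only 2 overlapped a PU.1 site and 1 a MED1 site, while 8 overlapped an ATAC-seq site. Without LPS, JunB pointed the same way at 11 of the 12. Its change without LPS was above 0 at 57.1% of all 2441 higher sites and at 46.2% of all tested sites.

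Plpp3, which encodes a membrane phosphatase that breaks down lysophosphatidic acid and related lipids, held 4 of the 12. The site in its last intron (chr4:104893542-104893880) had 69.86 and 53.11 RP10M in GPS2 KO cells against 4.48 and 2.54 in WT cells, a log2 change of 3.60 ± 0.48 (limma adjusted p = 1.66e-08). The site 134298 bp downstream of the start (chr4:104964157-104964343) had 70.82 and 71.31 in GPS2 KO cells against 6.72 and 4.23 in WT cells, a change of 3.40 ± 0.38. The libraries of the groups did not overlap at either site.

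The intronic site of Col16a1, a collagen gene (chr4:129748930-129749195), had 62.21 and 67.52 RP10M in GPS2 KO cells against 7.47 and 5.93 in WT cells (log2 change 3.06 ± 0.33, limma adjusted p = 4.51e-11). Without LPS the same site pointed the other way, with 1.67 and 3.47 in GPS2 KO cells against 6.87 and 10.81 in WT cells, which did not pass the test (-1.41, limma adjusted p = 0.16). The other named rises stood near Olfm3 (3.02), Rprl2 (2.81), Egfl7 (2.71), 4930545L23Rik (2.68), Tnni3k (2.61), Cacnb2 (2.57) and Tnp1 (2.56 log2). Cacnb2, a calcium channel subunit, also had more RNA in the knockout, 15.2 to 22.6 RP10M in GPS2 KO libraries against 1.25 to 2.83 in WT libraries. Egfl7 had less RNA in the knockout, 4.54 to 8.27 RP10M in GPS2 KO libraries against 13.8 to 28.3 in WT libraries (-1.41 log2, called lower).

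Among the 12 named lower sites, no WT library had under 29.89 RP10M and no GPS2 KO library over 28.07. These sites were more often intronic (8 of 12), 9 held an AP-1 core, and JunB without LPS pointed the same way at all 12. Over all 939 lower sites, 24.4% had a change above 0 without LPS. The intronic site of Reep3, an endoplasmic reticulum protein (chr10:66546441-66546680), had 3.83 and 3.79 RP10M in GPS2 KO cells against 72.48 and 72.79 in WT cells. Its log2 change of -3.55 ± 0.45 (limma adjusted p = 4.06e-09) was the largest fall. Reep3 RNA did not pass the test (-0.04 ± 0.10, limma adjusted p = 0.762).

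The site nearest 1700028P15Rik (chr2:171183889-171184225) had 3.83 and 6.07 RP10M in GPS2 KO cells against 58.28 and 52.48 in WT cells, and a neighbouring site on the same chromosome, nearest to Dok5, had 5.74 and 3.79 in GPS2 KO cells against 36.61 and 37.24 in WT cells. The intronic site of the sialyltransferase gene St3gal6 (chr16:58519852-58520110) had 2.87 and 4.55 in GPS2 KO cells against 50.06 and 33.86 in WT cells. An intronic site of Adgrl2, an adhesion receptor (chr3:148581495-148581778), had 2.87 and 7.59 in GPS2 KO cells against 29.89 and 33.86 in WT cells. Adgrl2 RNA was nearly absent in the knockout, 0 to 1.74 RP10M in GPS2 KO libraries against 75.8 to 171.2 in WT libraries. St3gal6 RNA did not pass the test (-0.01 ± 0.07, limma adjusted p = 0.92), so lower JunB stood beside lower RNA at Adgrl2, while at St3gal6 and Reep3 no RNA change was detected.

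**Figure D2:**
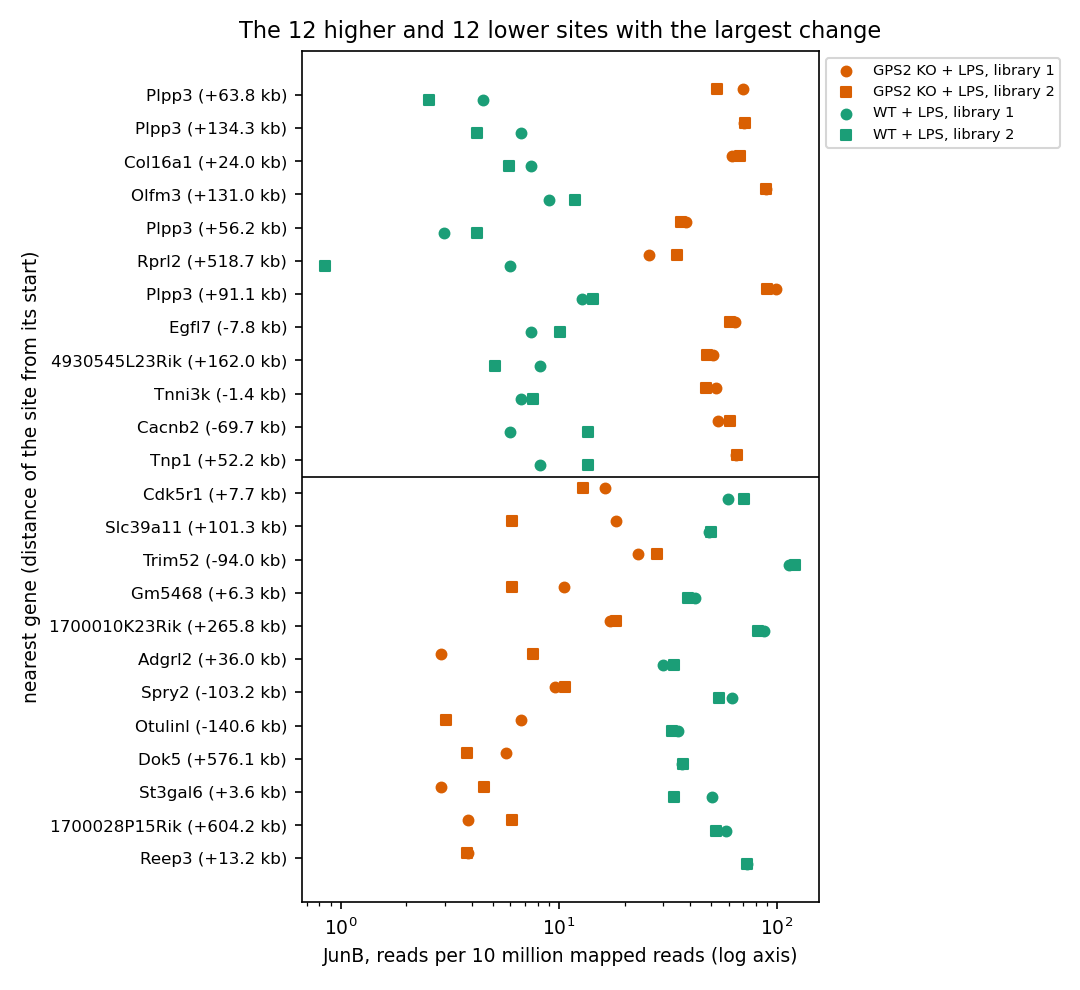
JunB signal in RP10M (log axis) in each of the 4 LPS libraries at the 12 named higher sites (top) and the 12 named lower sites (bottom), labelled by nearest gene and by the distance of the site from that gene's start. The 2 GPS2 KO libraries (orange) and the 2 WT libraries (green) do not overlap at any of the 24 sites, by the rule that chose them.

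Within 1 kb of a start, 0.978% of 7870 sites were higher and 0.648% lower, and beyond 1 kb 4.64% of 50940 sites were higher and 1.74% lower. Intergenic sites were higher most often (5.71% of 23415), introns less (3.65% of 26476), and introns held the larger share of falls (2.06%, against 1.34% of intergenic sites). Higher sites lay a median of 41515 bp from the nearest start and lower sites 16692 bp, against 17105 bp over all tested sites. Sites within LTR and LINE repeats were higher in 5.69% of 5133 and 5.28% of 2331 cases, and sites in SINE repeats in 2.69% of 3349.

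Rises fell largely outside places where the other factors were found. Of the 31162 JunB sites that overlapped no MED1 site, 7.19% were higher, and of the 27648 that did, 0.731%. Falls were alike in both classes, 1.6% and 1.59%. Of the 13965 sites that overlapped no PU.1, MED1, RNA polymerase II or ATAC-seq site, 9.34% were higher and 1.38% lower, with a median log2 change of 0.235. Sites without MED1 are fainter, a median of 20.9 RP10M in GPS2 KO cells against 45.8 at sites with MED1, so the shares were also read within classes of strength. Between 20 and 40 RP10M, 9.77% of sites without MED1 and 1.07% of sites with it were higher, and between 40 and 80 RP10M 5.56% and 0.911% were. The same order held for ATAC-seq between 20 and 40 RP10M, with 11.2% of sites outside and 3.85% of sites inside accessible regions higher.

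**Figure D3:**
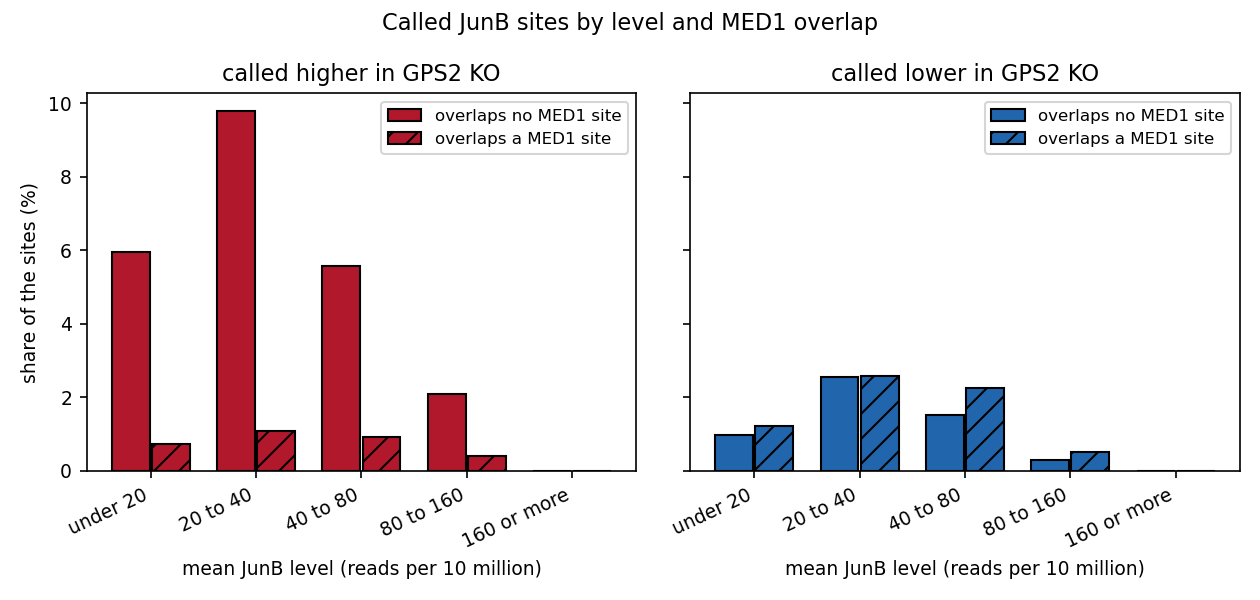
Share (%) of tested JunB sites called higher (left) and lower (right) in GPS2 KO cells, in 5 classes of mean JunB level in RP10M, for sites that overlap no MED1 site (plain bars) and sites that overlap one (hatched bars). Higher calls reach 9.77% without MED1 and 1.07% with MED1 between 20 and 40 RP10M, lower calls are alike at that level (2.55% without and 2.59% with MED1), and there are none at 160 RP10M or more.

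Where another factor was measured at a called JunB site, it mostly moved the same way as JunB. These factors were assayed in libraries of their own. A value needs a region in the merged list of that factor, which 17.8% of higher JunB sites overlapped for PU.1 and 8.28% for MED1. Of the lower JunB sites, 34.2% and 46.8% did. A region can enter a merged list through either genotype alone, and how far this favours a shared direction was not tested. PU.1, the lineage factor of macrophages, could be measured at 434 higher JunB sites, where its median log2 change was 0.866 and 97% of values were above 0, and at 320 lower sites, where the median was -0.644 and 4.06% were above 0. By its own test, PU.1 was called higher at 133 of the 434 and lower at 0, and called lower at 40 of the 320 and higher at 0. Over its whole table PU.1 was called higher at 3.11% and lower at 1.21% of sites, 1620 and 628 in number, which were 607 and 4573 with library totals. Its higher calls were 677 and 530 without WT replicate 1 and 2. Read from the PU.1 side, 20.2% of the 1620 higher PU.1 sites overlapped a JunB site, and at 133 of those 328 JunB sites (40.5%) JunB was called higher.

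MED1 showed the same direction with larger steps at rises. At 179 higher JunB sites MED1 had a median log2 change of 1.24, and 93 of them (52%) were called higher, against 1.67% higher and 0.415% lower in the whole MED1 table. Those table-wide calls, 435 higher and 108 lower, were 90 and 6550 with library totals, and the higher ones were 196 and 180 without WT replicate 1 and 2. At 429 lower JunB sites the median was -0.39 and 17 were called lower. Of the 435 higher MED1 sites, 76.8% overlapped a JunB site, and 23.4% of the 398 JunB sites there were called higher. PU.1 and MED1 both had a value at 63 higher JunB sites and both moved up at 57 of them. They both had a value at 178 lower sites and both moved down at 156.

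RNA polymerase II followed less closely. It had a value at 63 higher and 235 lower JunB sites, with median log2 changes of 0.0782 and -0.327. It was called higher at 16 and lower at 1 of the 63, and lower at 40 and higher at 16 of the 235. Its table had 12.7% of regions higher and 7.58% lower. For these 3 factors, library totals move the median of the whole table to -0.40 (PU.1), -0.75 (MED1) and -1.834 (RNA polymerase II), so their changes too are relative to the bulk of their sites. The shares of reads inside sites were lower in GPS2 KO libraries (11.7% in both for PU.1, 8.81% and 8.92% for MED1, 14.2% and 14.4% for RNA polymerase II) than in WT libraries (15.96% and 15.54%, 14.6% and 14.6%, 46.4% and 45.0%). The part of this difference in the results was not tested.

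Accessibility before LPS already pointed the same way. The ATAC-seq difference between untreated GPS2 KO and control cells, on the authors' log2 scale, had a median of 0.106 at 1005 higher JunB sites, with 84.2% above 0, and of -0.0852 at 590 lower sites, with 20.3% above 0. At sites not called the median was 0.0066. JunB itself without LPS had a median log2 change of 0.193 at the higher sites and -0.471 at the lower ones, against -0.0652 over all tested sites. Its levels there were low, a median of 3.24 RP10M in GPS2 KO cells and 3.34 in WT cells at the higher sites, and 4.81 in GPS2 KO cells and 8.4 in WT cells at the lower ones.

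By its own test, JunB without LPS was higher at 5.22% and lower at 1.91% of sites, 3068 and 1125 in number, which were 1455 and 2424 with library totals. Of the 2441 sites higher with LPS, 168 (6.88%) were also higher without LPS and 26 were lower. The 168 are 5.48% of the higher sites without LPS. Of the 939 lower sites, 58 (6.18%) were lower without LPS and 13 higher. These shares stand beside the 5.22% and 1.91% of all sites. The calls without LPS also hang on single libraries: higher calls numbered 652 without untreated WT replicate 1 and 556 without untreated WT replicate 2, with 526 and 440 lower calls. Without untreated GPS2 KO replicate 1 or 2, lower calls numbered 1883 and 2077.

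**Figure D4:**
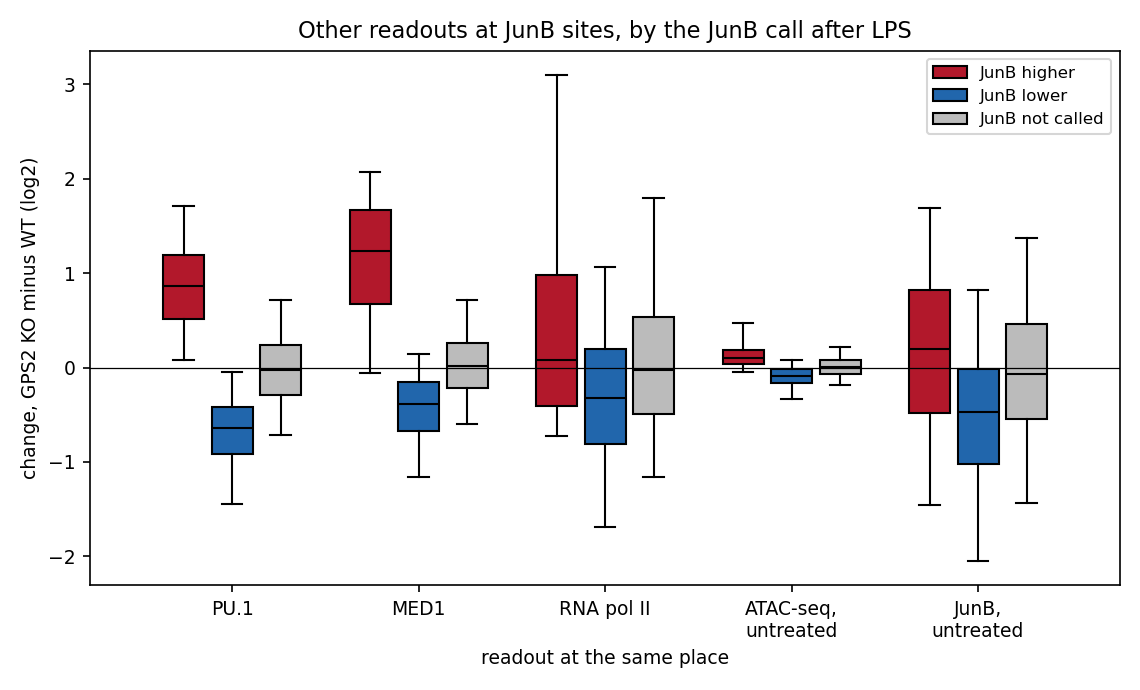
Log2 change, GPS2 KO minus WT (control for ATAC-seq), of PU.1, MED1 and RNA polymerase II after LPS, of ATAC-seq without LPS (authors' log2 scale) and of JunB without LPS, at JunB sites called higher (red), lower (blue) or not called (grey) after LPS; boxes give the median and quartiles, whiskers the 5th and 95th percentiles. Median PU.1 change is 0.866 at higher and -0.644 at lower JunB sites, and median MED1 change 1.24 and -0.39.

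Motifs were searched on both strands within 100 bp of the site centre, in 58760 tested sites with sequence. The AP-1 core, TGACTCA or TGAGTCA, stood in 45.6% of all windows, in 44.7% of windows of higher sites and in 59.2% of windows of lower sites. Of the windows with a core, 62.2% had it within 25 bp of the centre. The cAMP response element TGACGTCA, which CREB and ATF proteins bind and Jun proteins can bind with ATF partners, was rare, in 840 windows or 1.43%, and does not contain the AP-1 core. JunB was higher at 61 of these sites (7.26%, against 4.15% of all) and lower at 1 (0.119%, against 1.6%). The median log2 change of the 840 sites was 0.293. It was 0.158 with library totals, where the median of all sites was -0.14, and 0.325 with cyclic loess. All 61 rises lay beyond 1 kb of a start, among 521 such sites (11.7%, against 4.64% of all sites beyond 1 kb). None of the 319 sites within 1 kb was called, although their median was 0.223. Calls are rare within 1 kb in any case, 0.978% higher and 0.648% lower over all such sites.

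The C/EBP core TTGCNNAA, bound by factors that act beside AP-1 in myeloid cells, stood in 16.5% of windows of higher sites, 8.95% of lower and 11.6% of all. The RUNX core TGTGGTNA was in 7.79%, 5.01% and 6.43%. The PU.1 core GAGGAAGT was in 6.56%, 4.05% and 7.09%, the NF-kB core in 2.71%, 2.56% and 4.25%, and the interferon regulatory factor core in 2.3%, 2.02% and 2.6%. The MiT/TFE E-box TCACGTGA was found in 198 windows, of which 11 were higher (5.56%, against 4.15% of all sites) and 0 lower (against 1.6%). A match only says that these letters are in the window.

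In windows of 1 Mb with at least 8 tested sites, of which there were 1672, the median log2 change exceeded 0.5 in 86 windows and was under -0.5 in 3. The window chr4:104000001-105000000, where Plpp3 is the commonest nearest gene, had 9 of 9 sites higher, with a median of 1.42. The window chr3:117000001-118000000, around the sorting nexin gene Snx7, had 9 of 12 higher and a median of 1.24. The lowest median, -0.993, was in chr14:106000001-107000000, which holds sites nearest to Spry2 and where Mir6390 is the commonest nearest gene, with 4 of 8 sites lower and 1 higher.

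Rarb, the retinoic acid receptor beta, was the nearest gene of the most higher sites, 8 of its 11 and no lower one. The intronic site chr14:17358594-17358947 had 108.2 and 116.8 RP10M in GPS2 KO cells against 44.83 and 34.7 in WT cells, a log2 change of 1.60 ± 0.15 (limma adjusted p = 5.47e-13). A site 59 bp upstream of its start rose by 1.70 ± 0.24, and JunB without LPS was higher there too, by 2.20. Rarb RNA was 16.9 to 25.8 RP10M in GPS2 KO libraries and 3.54 to 5.42 in WT libraries, so the groups did not overlap. In bulk samples, more RNA per cell and more cells with the RNA cannot be told apart.

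At Plpp3 all 7 sites were higher, between 56204 and 134298 bp downstream of the start, by 1.07 to 3.60 log2. The strongest in level, chr4:104936329-104936667, had 208.6 and 186.6 RP10M in GPS2 KO cells against 91.91 and 75.33 in WT cells. There PU.1 rose by 1.37 and MED1 by 1.76 log2. Plpp3 RNA was low, 7.22 ± 0.60 RP10M in GPS2 KO cells and 2.13 ± 1.00 in WT cells (SD over 4 libraries each), and passed the test.

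Sorl1, a sorting receptor of the endosome, had 7 of 15 sites higher on both sides of its start. The intronic site chr9:41916463-41916901 had 72.74 and 59.93 RP10M in GPS2 KO cells against 35.12 and 32.16 in WT cells (1.05 ± 0.18, limma adjusted p = 3.97e-06). Sorl1 RNA was 757.2 to 786.3 in GPS2 KO libraries and 37.5 to 82.7 in WT libraries. Rybp, a Polycomb subunit, had 6 of 31 sites higher, and its site at chr6:100352592-100352930 had 181.8 and 178.3 RP10M in GPS2 KO cells against 54.55 and 60.1 in WT cells, with PU.1 up by 1.36 and MED1 by 1.83 log2. Its neighbour 1700049E22Rik had 6 of 17 higher in the same stretch.

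Creb5, which encodes a CREB/ATF-type leucine zipper factor, had 6 of 28 sites higher, 5 of them upstream, at -57687 to -109891 bp from the start. The site at chr6:53441348-53441642 had 57.42 and 56.9 RP10M in GPS2 KO cells against 12.7 and 13.54 in WT cells, while without LPS it had 0.83 and 0 in GPS2 KO cells against 1.87 and 0 in WT cells. Snx7 had 6 of 9 sites higher, and its RNA and that of Creb5 differed by under 2-fold (0.71 and 0.98 log2). Gm17746 (6 of 11), Cntnap5c (5 of 6) and Igsf9b (5 of 6) complete the 10 genes with the most higher sites.

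On the falling side, Spry2, an inhibitor of receptor tyrosine kinase signalling, had all 3 sites lower. The site at chr14:106399098-106399401 had 9.57 and 10.62 RP10M in GPS2 KO cells against 62.02 and 54.17 in WT cells (-2.17 ± 0.28, limma adjusted p = 1.04e-08). At the stronger site chr14:106322005-106322343, with 52.64 and 55.38 in GPS2 KO cells against 121.0 and 129.5 in WT cells, MED1 and RNA polymerase II had log2 changes of -1.415 and -1.858. Spry2 RNA was 0 to 1.74 RP10M in GPS2 KO libraries and 60.8 to 78.6 in WT libraries, and without LPS JunB at this site had a change of -2.03 (limma adjusted p = 1.71e-06).

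1700010K23Rik had 4 of 6 sites lower, and Dab2, Zfp608, Trib1, Mbnl1 and B4galt6 had 4 each of 13 to 37 sites. Trib1, a pseudokinase that steers C/EBP turnover, had 51.68 and 47.8 RP10M in GPS2 KO cells against 125.5 and 138.0 in WT cells at chr15:59419630-59419968 (-1.22 ± 0.14, limma adjusted p = 1e-10). Dab2, an endocytic adaptor, and Zfp608 had lower JunB at 4 sites each but more RNA in the knockout, by 1.34 and 1.19 log2, so the direction of JunB and of RNA differed there. It also differed at Mbnl1 and B4galt6, whose RNA was higher by 0.83 and 0.61 log2, while Trib1 RNA was lower (-0.76). These 3 RNA changes passed the test below 2-fold. Rprm, Proca1 and Gm6260 had 3 lower sites each.

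**Figure D5:**
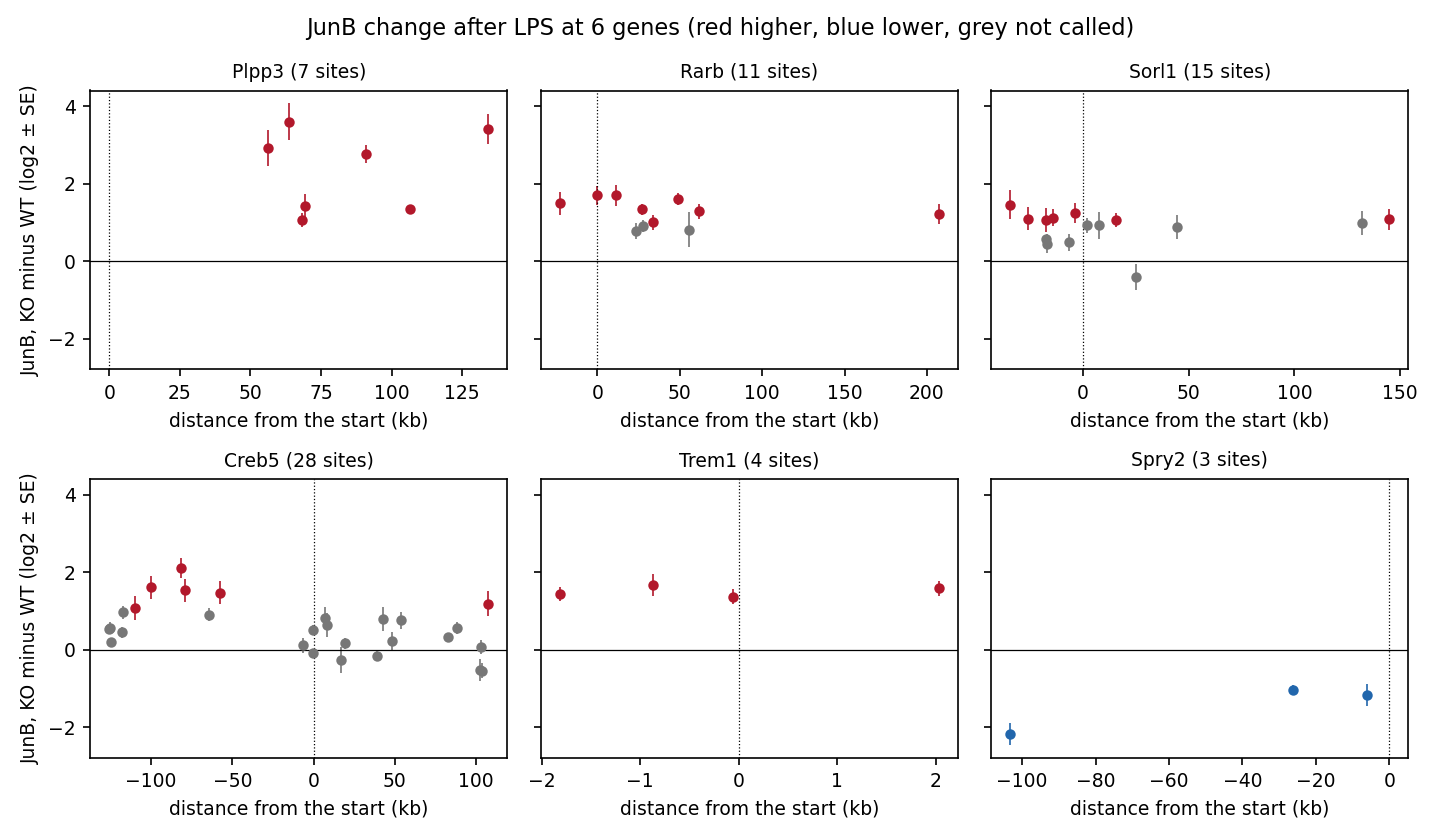
Log2 change of JunB after LPS, GPS2 KO minus WT, with its standard error, at every tested site whose nearest gene is Plpp3, Rarb, Sorl1, Creb5, Trem1 or Spry2, against the distance from that gene's start (dotted line) in kb. All 7 Plpp3 sites and all 4 Trem1 sites are higher (red), all 3 Spry2 sites are lower (blue), and 8 of 11 Rarb, 7 of 15 Sorl1 and 6 of 28 Creb5 sites are higher, the others not called (grey).

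Many of the genes with several rising JunB sites had more RNA in the knockout. After LPS, 3.85% of tested genes were higher and 3.97% lower in RNA. Among the 9721 tested genes that are nearest to a JunB site, 4.09% were higher. Of the 41 tested genes with at least 3 higher sites and no lower one, 17 (41.5%) had higher RNA and 1 (2.44%) had lower RNA, with a median RNA log2 change of 0.867. The 17 include the scaffold gene Nedd9 (4.43 log2, 5 of 10 sites), Map2k6, a p38 kinase kinase (3.46, 4 of 17), and Trem1 (3.86, 4 of 4), and the 1 with lower RNA was the corepressor gene Tle3 (-1.04, 5 of 12). Of the 86 tested genes with at least 2 lower sites and no higher one, 5.81% had higher and 4.65% had lower RNA. Seen from the RNA, sites near the 454 genes with more RNA were higher in 6.83% and lower in 1.49% of 2490 cases, and sites near the 468 genes with less RNA in 1.96% and 2.11% of 1987. Nearest genes were often outside the RNA table: 33.1% of genes with a higher site and no lower one had a tested RNA value, against 76.8% of genes with a lower site and no higher one.

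Few sites near the AP-1 genes themselves were called. The 2 sites nearest Junb had changes of -0.244 and -0.0927 log2, neither of them called. Junb RNA was 4183 ± 227.3 RP10M in GPS2 KO cells and 7999 ± 1356 in WT cells (SD over 4 libraries each), a log2 change of -0.92 ± 0.12 that passed the test below 2-fold. Its part in the JunB signal was not tested, and the RNA was taken at 6 hours of LPS and the chromatin at 2 hours. Jun RNA had a log2 change of 1.05 and Jund RNA of -1.05, while Fosl2 had -1.49 and Fos -0.68. Batf, a leucine zipper partner of Jun proteins, had a change of 3.69 at a low level, a mean of 31.3 RP10M in GPS2 KO cells and 1.89 in WT cells.

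Of the 219 sites near the 22 listed AP-1 and CREB/ATF genes, 2 were higher and 0 lower (0.913%, against 4.15% of all), with a median of -0.103. The higher site near Jun, at -126498 bp from its start, had 34.45 and 28.83 RP10M in GPS2 KO cells against 14.2 and 17.78 in WT cells. Of the 19 sites near Fos, 8 passed the test below 2-fold and none was called. Among all 58810 tested sites, 7727 higher and 8093 lower ones passed at adjusted p under 0.05 with no fold requirement. The site near Jdp2, a repressor partner of Jun proteins, had 118.7 and 112.3 in GPS2 KO cells against 209.2 and 226.0 in WT cells (-0.75 ± 0.08, limma adjusted p = 5.86e-11). The 13 sites near Ccl2, a chemokine gene, ranged from -0.38 to 0.087 with none called, and the 1 site near Gps2 had -0.108.

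Among the listed gene groups, the TREM, PILR, CD200R and CD300 receptors had the largest share of higher sites, 11 of 105 (10.5%) near 6 of the 20 genes with a site, with 1 lower. The median of all 105 was 0.0366, close to that of all sites, and was -0.107 with library totals. At Trem1, an activating receptor of myeloid cells, all 4 sites within 2032 bp of the start were higher. The intronic one (chr17:48373836-48374035) had 71.78 and 75.87 RP10M in GPS2 KO cells against 25.4 and 26.24 in WT cells (1.59 ± 0.19, limma adjusted p = 8.98e-10), with MED1 up by 2.84 log2. The promoter site of Trem3 had 38.28 and 42.48 in GPS2 KO cells against 12.7 and 11.85 in WT cells. The promoter site of Pilra, an inhibitory receptor, had 56.47 and 57.66 in GPS2 KO cells against 11.96 and 10.16 in WT cells. RNA of all 3 was far higher in the knockout, with 129 to 150.0 RP10M for Trem1 in GPS2 KO libraries and 6.32 to 11.9 in WT libraries. Granulocytes also express Trem1, and the granulocyte sum given above, from 3 of 10 markers, was higher in GPS2 KO. Its part at these sites was not tested. The inhibitory receptor Sirpa went the other way below 2-fold (-0.75 ± 0.10, limma adjusted p = 1.48e-08).

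Sites near the 29 inflammatory cytokines and mediators had a median of 0.138, the highest of the 16 lists, with 8 of 178 higher (4.49%) and 3 lower (1.69%), close to the 4.15% and 1.6% of all sites. With library totals this median was -0.00603, while that of all sites was -0.14. The site upstream of Csf2, which encodes the growth factor GM-CSF (chr11:54064942-54065126), had 95.71 and 97.11 RP10M in GPS2 KO cells against 34.37 and 43.17 in WT cells, with PU.1 up by 1.06 log2. Csf2 RNA was 3143 ± 83.25 RP10M in GPS2 KO cells and 269.2 ± 93.9 in WT cells (SD over 4 libraries each). Without LPS JunB was near nil at this site, 3.34 and 1.16 in GPS2 KO cells against 3.12 and 3.09 in WT cells. The site upstream of Csf1, the macrophage growth factor, had 72.74 and 78.14 in GPS2 KO cells against 23.91 and 23.7 in WT cells.

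The anti-inflammatory cytokine gene Il10 stood on the other side. Its site at chr1:132930350-132930698 had 124.4 and 135.0 RP10M in GPS2 KO cells against 254.8 and 281.9 in WT cells (-0.87 ± 0.08, limma adjusted p = 2.72e-14), which passed the test below 2-fold, with MED1 at -0.90 log2. Il10 RNA was 234.3 ± 5.10 RP10M in GPS2 KO cells and 1301 ± 297.1 in WT cells (SD over 4 libraries each). The promoter site of Il15 was called lower (-1.11 ± 0.28), and Il15 RNA had a log2 change of -1.14. RNA polymerase II went the other way at this site, by 0.99 log2, and passed the test below 2-fold.

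In the NF-kB list, 6 of 233 sites were higher (2.58%, against 4.15% of all) and 5 lower (2.15%, against 1.6%). The site 68432 bp downstream of the start of Tnfaip3, the ubiquitin-editing inhibitor A20, had 103.4 and 75.87 RP10M in GPS2 KO cells against 17.93 and 18.62 in WT cells (2.27 ± 0.22, limma adjusted p = 7.94e-13), with MED1 up by 2.54 log2. Tnfaip3 RNA was 2522 ± 51.05 RP10M in GPS2 KO cells and 3768 ± 997 in WT cells (SD over 4 libraries each), a log2 change of -0.53 that passed the test below 2-fold. A site upstream of the MAP kinase phosphatase gene Dusp5 was lower (-1.23 ± 0.17).

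In the list of LXR targets and lipid handling, 5 of 145 sites were higher (3.45%, against 4.15% of all) and 4 lower (2.76%, against 1.6%). Rises stood near the fatty acid binding proteins, with 100.5 and 99.38 RP10M in GPS2 KO cells against 26.15 and 37.24 in WT cells near Fabp5, and with 153.1 and 145.7 in GPS2 KO cells against 71.73 and 74.49 in WT cells near Fabp4. RNA of both genes was higher in the knockout, by 1.45 and 2.065 log2. A rise near the scavenger receptor gene Cd36 (1.01 ± 0.18) stood beside an RNA log2 change of -1.865.

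Of 114 sites near interferon-stimulated genes, 3 were higher (2.63%, against 4.15% of all) and 2 lower (1.75%, against 1.6%), with the median at 0.0489. The intronic site of Irf1, a regulator of interferon genes, had 21.06 and 21.24 RP10M in GPS2 KO cells against 64.26 and 63.48 in WT cells (-1.37 ± 0.22), with PU.1 at -1.71 log2 and Irf1 RNA at -1.01. RNA polymerase II went the other way at this site and was called higher (1.31 log2). The site at the end of Rsad2, an antiviral gene, rose by 1.5 ± 0.18. Among osteoclast genes and matrix metalloproteinases, 5 of 98 were higher (5.1%, against 4.15% of all) and 3 lower (3.06%, against 1.6%), with Itgb3, integrin beta 3, at 1.39 and the fusion protein gene Dcstamp at -1.49. A site upstream of Gpnmb, a lysosomal glycoprotein, rose by 1.16 ± 0.18 with MED1 up by 1.845, and Gpnmb RNA was higher by 3.59 log2.

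In other lists the counts of called sites were small. Of the 222 sites near Kruppel-like, Egr and other immediate early factors, 0 were higher (against 4.15% of all) and 3 lower (1.35%, against 1.6%). At adjusted p under 0.05 with no fold requirement, 50 of them were lower and 16 higher, where all sites gave 8093 lower and 7727 higher. At that level most lists had more lower than higher sites, among them AP-1, NF-kB, lysosome and housekeeping genes (46 and 22, 51 and 18, 39 and 9, 6 and 4). Only the inflammatory list (20 lower and 45 higher) and the interferon list (7 lower and 18 higher) went the other way. Of 106 cell cycle sites, none was called, with 8 higher and 12 lower at that looser level. In the genes of the corepressor complex that holds GPS2, 2 of 91 sites were higher (2.2%, against 4.15% of all) and 3 lower (3.3%, against 1.6%). The chemokine list had 4 of 87 higher (4.6%, against 4.15% of all) and 1 lower (1.15%, against 1.6%). Among the higher were the Ccl12 promoter site (1.32 ± 0.23) and a site near Ccl8 (1.59 ± 0.29), and the lower one was near Ccl3 (-1.01 ± 0.21). The macrophage identity list had 8 of 307 higher (2.61%) and 4 lower (1.3%). Glycolysis (2 of 130 higher, 1 lower), stress response (2 of 109), lysosome (3 of 167) and housekeeping genes (1 of 52) held shares under the 4.15% of all sites.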

How the data were processed

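JunB, PU.1, MED1 and RNA polymerase II ChIP-seq and RNA-seq tables hold values that the authors scaled to 10000000 mapped reads, per the file headers. The ATAC-seq table holds log2 values, deposited after a transformation in the authors' differential step that is not stated. The submitters' processing notes name Bowtie2, BWA, HISAT2, HOMER, MACS2, DESeq2, edgeR and mm9, without roles or versions; the command behind the JunB table is not given in the sources used here. Peaks were merged over libraries by the authors. A further 8 per-library columns, rescaled copies held by the tables of MED1 and of RNA polymerase II, were left out.

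Each value was a whole multiple of what 1 read is worth (tolerance 0.05), so reads were recovered for scaling and weights. The deposited decimals were not registered as counts, so the planned count tests were not run. Sites needed 10 reads at the median depth in 2 libraries and 15 reads in all. The test was limma 3.58.1 in R 4.3.3 with precision weights on log2(value + 1) after TMM scaling. It was fitted on all 8 JunB libraries, with Benjamini-Hochberg adjustment over 58810 sites. The other ChIP-seq comparisons used the same test, each on the libraries of its own assay. The RNA comparison used limma on the same scale without weights, with a trended, robust spread. Simulated data for JunB with LPS (58648 sites) held changes at sites above a read minimum, with a spread set in advance. The weighted test gave adjusted p under 0.05 in the right direction at 52 of 100 changes of 2-fold and 99 of 100 of 4-fold. No fold requirement was applied there, and the 2-fold rises had a median log2 change of 0.921, so these are not recovery rates of the calls. Sites of different assays were joined by an overlap of at least 1 bp with bedtools 2.31.1, and genes by the nearest start in the authors' annotation. Python 3.11.15, pandas 2.3.3, numpy 2.4.6 and matplotlib 3.10.9 were used.

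Named sites were the 12 largest called changes in each direction with at least 30 RP10M in the higher group and no overlap of libraries, the 5 strongest sites, the sites with the smallest p in each gene list (up to 3 in each direction, 1 a gene), the sites nearest Gps2, Ccl2, Junb, Jun and Fos, and the 10 genes with the most called sites in each direction. Other genes, such as those with at least 3 higher sites, were chosen after their values were seen. Sites, gene lists and tests were chosen with earlier results of these data known. Chi-square per site between the libraries of a group was 0.822 to 1.24 for JunB. The labels name no separate cultures, so p-values measure the spread between libraries, which may be technical. A site near 1 listed gene is not reported here.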

Additional observations from a re-analysis of the deposited data

Results flagged for a closer look

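Gps2 RNA in WT replicate 4 with LPS was 399.5 RP10M, flagged as apart from the other 3 WT libraries though close in size, the lowest of which was 371.4. Trem3 RNA in WT replicate 4 with LPS was 11.33 RP10M, against 5.225 in the lowest WT library. Both stay on the WT side of the GPS2 KO range (66.3 to 84.9 for Gps2 and 98.3 to 108.9 for Trem3). Chance flags about 1 in 20 groups in this way. Both flags fell on the same library, whose TMM factor was 0.806 against 0.879 to 0.889 in the other WT LPS libraries. Leaving it out gave 413 genes with higher RNA, and leaving out any other WT LPS library gave 489 to 539.

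The intronic JunB site of Col16a1 moved in opposite directions with and without LPS, with all libraries apart each time. Its log2 change was 3.06 with LPS and -1.412 without LPS, and the difference between them was not tested.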

How the results depend on the processing

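JunB calls with LPS (2441 higher and 939 lower) numbered 2530 and 882 with median-of-ratios size factors, 2441 and 939 without the filter, 2860 and 1157 with only the 4 LPS libraries, 1862 and 1131 with cyclic loess and 2443 and 909 with the GC trend removed. With library totals they were 1917 and 2136, with a pseudocount of 5 they were 774 and 230, and with no weights and a trended, robust spread 14 and 3. The same settings with only the 4 LPS libraries, an alternative chosen after seeing the data, gave 2852 and 1169. In simulated data the unweighted 8-library test gave adjusted p under 0.05 at 2 of 100 changes of 2-fold. With a replicate block they were 2406 and 922; deviations of same-numbered libraries correlated between -0.0147 and 0.0165 over 13260 sites, so the numbers were not taken to pair samples. The planned edgeR and DESeq2 tests were not run.

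Library totals gave 1455 higher and 2424 lower sites for JunB without LPS, 607 and 4573 for PU.1, 90 and 6550 for MED1, and 399 and 19234 for RNA polymerase II. Of the 209 named sites, 3 changed sign with library totals, to log2 changes of -0.0283 (Socs1), -0.101 (Btbd9) and -0.132 (Twsg1), and 4 no longer had an adjusted p under 0.05. Of the 92 named sites that were called, 9 lost the call, among them sites described for Sorl1 (0.932), Cd36 (0.886) and Jun (0.939). Library totals lower the median of all sites to -0.14.

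Leaving out 1 library at a time gave 2228 to 2537 higher and 953 to 1042 lower JunB sites with LPS, 556 to 4108 and 440 to 2077 without LPS, 530 to 1689 and 299 to 704 for PU.1, 180 to 464 and 43 to 220 for MED1, 2597 to 3207 and 1357 to 2318 for RNA polymerase II, and 413 to 539 and 463 to 496 genes for RNA. PU.1 higher calls were 677 and 530 without WT LPS replicate 1 and 2, and lower calls 328 and 299 without GPS2 KO LPS replicate 1 and 2. MED1 higher calls were 196 and 180 without WT LPS replicate 1 and 2. With overlap read as a centre within 100 bp, 46.9% of JunB sites met MED1 in place of 47%, and with promoters read as within 3 kb their median was -0.017 in place of 0.0407.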
